A study of Mus musculus with 9 samples.

Results

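De novo fatty acid synthesis was described here by 6 genes, Acly, Acaca, Fasn, Acss2, Mid1ip1 and Slc25a1, which were matched by symbol in the gene-level count table and were all found among its 54432 rows of genes. The table covered 9 RNA libraries of RAW 264.7, a mouse macrophage cell line transformed by a leukemia virus, with 3 libraries of untreated cells (CTRL), 3 of cells given 1 mM VLDLsep and 3 of cells given 1 mM CHYLsep. VLDLsep and CHYLsep are emulsion particles made to the size of very low density lipoproteins and of chylomicrons from sunflower oil with sodium caseinate. They model the size and triglyceride load of lipoproteins and not their own proteins, and cells were exposed for 6 h. No group was given caseinate without oil, so the parts of the oil and of the emulsifier were not tested apart. All groups shared the same medium with serum and the same passage range, and the study pooled the samples of each condition within an experiment. The 6 genes all passed the filter on low values (more than 10 counts in at least 3 libraries), as did 12637 genes of the table.

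Fatty acids are built in the cytosol from acetyl-CoA. Citrate leaves the mitochondrion through the carrier encoded by Slc25a1, ATP citrate lyase (Acly) splits it into acetyl-CoA, and acetyl-CoA synthetase 2 (Acss2) makes the same product from acetate. Acetyl-CoA carboxylase 1 (Acaca), which is driven into active polymers by the small protein Mid1ip1, turns acetyl-CoA into malonyl-CoA, from which fatty acid synthase (Fasn) assembles palmitate with NADPH as the reductant. In macrophages this route supplies membrane lipids, and its genes are textbook targets of the transcription factor SREBP-1.

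The 250 bases before the RefSeq start of Fasn, Acly and Slc25a1 are shown. These genes were picked with the results known, as they fell to different extents and their windows hold different promoter motifs. Whether the motifs relate to the extent of the fall was not tested. The sequences are from RefSeq on GRCm38.p6, each on the minus strand and written 5′ to 3′, with the window of Fasn at chr11:120824548-120824797, that of Acly at chr11:100528001-100528250 and that of Slc25a1 at chr16:17928220-17928469. Capitals mark matches, on either strand, to the CCAAT box (CCAAT), the GC box (GGGCGG) and the E-box (CACGTG).
Fasn: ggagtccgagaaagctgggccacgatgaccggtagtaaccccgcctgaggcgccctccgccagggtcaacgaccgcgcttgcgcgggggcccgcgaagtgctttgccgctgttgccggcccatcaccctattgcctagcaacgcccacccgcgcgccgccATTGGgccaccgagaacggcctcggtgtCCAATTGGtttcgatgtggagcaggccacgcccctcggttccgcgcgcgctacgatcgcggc
Acly: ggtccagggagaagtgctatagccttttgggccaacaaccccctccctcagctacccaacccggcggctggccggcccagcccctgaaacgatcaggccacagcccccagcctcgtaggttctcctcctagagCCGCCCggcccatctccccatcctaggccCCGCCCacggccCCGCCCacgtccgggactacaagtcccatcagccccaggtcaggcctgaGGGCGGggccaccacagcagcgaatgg
Slc25a1: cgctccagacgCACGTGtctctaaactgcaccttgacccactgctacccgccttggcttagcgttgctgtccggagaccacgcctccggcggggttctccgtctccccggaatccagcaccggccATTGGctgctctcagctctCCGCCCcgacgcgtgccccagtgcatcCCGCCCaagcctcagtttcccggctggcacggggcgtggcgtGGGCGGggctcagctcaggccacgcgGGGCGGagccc
The Fasn window held 3 CCAAT boxes, 2 of which overlapped by 2 bases as CCAATTGG, and no GC box. The Acly window held 4 GC boxes and no CCAAT box. That of Slc25a1 held 1 E-box, 1 CCAAT box and 4 GC boxes. Among all 32851 RefSeq windows of this length, 33.8% held a CCAAT box, 32.7% a GC box and 6.02% an E-box. The sterol regulatory element TCACNCCAC, also searched on both strands, was in none of the windows of the 6 genes and in 1.05% of all windows, which says only that these letters are not within this stretch. All 6 genes had a window, but those of Acaca and Mid1ip1 lay at a RefSeq start inside the gene as GENCODE draws it, and the window of Acss2 ran past the GENCODE start. Of these 3, Acss2 held 1 CCAAT box and 4 GC boxes, Mid1ip1 held 2 GC boxes, and Acaca held no match. The Acaca window, with 39.2% G and C, ended in a pyrimidine-rich stretch and AG, as introns do. It may thus not be a promoter, and its lack of matches, also for the sterol element, says nothing of one.

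Library totals ran from 22393893 to 22856792 estimated counts. The 9 macrophage markers (Adgre1, Csf1r, Cd68, Lyz2, Itgam, Cd14, Spi1, Fcgr3 and Mertk) all passed the filter, and their summed level was 6611 to 6673 cpm (counts scaled to a library of 1e+06) in CTRL, 5916 to 6158 cpm with VLDLsep and 6095 to 6335 cpm with CHYLsep. With VLDLsep 4 of the 9 were called lower, with log2 differences of -0.54 for Cd14, -0.25 for Spi1, -0.18 for Itgam and -0.14 for Lyz2, and Cd68 was called higher (0.17). With CHYLsep only Cd14 was called, at -0.47. The part of this marker shift in the results for the 6 synthesis genes was not tested. Of the markers of T cells, B cells, adipocytes and hepatocytes none passed the filter, and Alb, Apoa1 and Ttr were at 0 in all libraries. Of 3 fibroblast markers Pdgfra alone passed, and their summed level was at most 2.53 cpm. The library numbered replicate 3 stood apart in each group. The median absolute log2 difference over genes was 0.14 to 0.15 between it and the other libraries of its group, against 0.07 to 0.09 between replicates 1 and 2. The log2 differences of the 6 genes, their median and their order by level per length are therefore given with and without replicate 3. Levels are in cpm scaled by TMM factors, so they are relative to all RNA counted. Fewer cells of the line with a transcript and less of it in each cell cannot be told apart in such bulk samples.

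Exposure to either particle lowered 5 of the 6 genes, while Acss2 did not pass the test. The 5 genes were lower in every particle-treated library than in every CTRL library. In the limma fit 5 of 6 genes were called lower with VLDLsep and none higher (adjusted p under 0.05), where 17.9% of the genes tested were called lower and 17.8% higher. With CHYLsep 5 of 6 were again called lower and none higher, against 13.0% and 12.7% of the genes tested. Library values fell wholly below CTRL for 23.7% of all genes with VLDLsep and for 20.9% with CHYLsep. The median log2 difference of the 6 genes was -0.83 with VLDLsep and -0.85 with CHYLsep, beside -0.00028 and 0.0013 over all genes tested. Without replicate 3 both medians of the 6 genes were -0.93. Both comparisons use the same 3 CTRL libraries, so they are not independent of each other. When only library size was used for scaling, the calls over all genes moved from 2256 lower of 4500 to 3312 lower of 4819 with VLDLsep and from 1639 lower of 3249 to 2514 lower of 3582 with CHYLsep, and the median of all genes moved to -0.09 and -0.08. The same 5 genes were called lower under that scaling too.

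**Figure D1:**
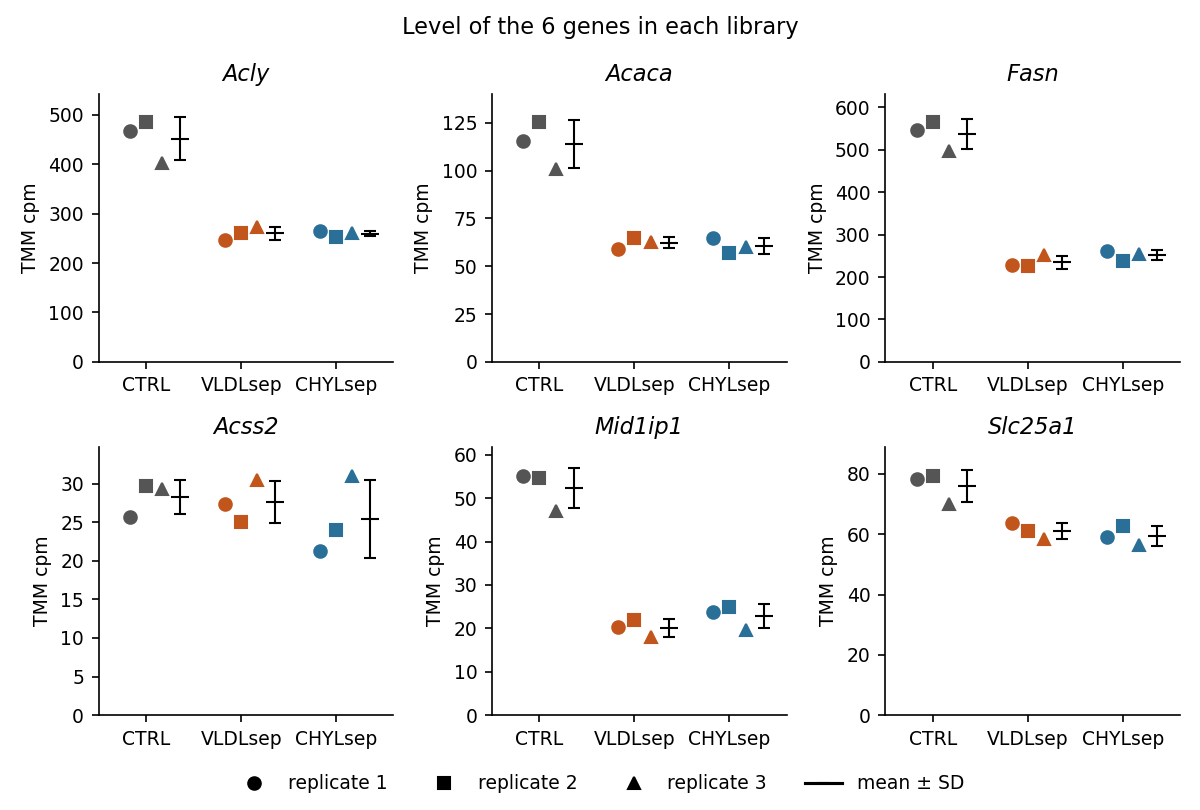
Level in TMM cpm (vertical axes, from 0) of each of the 6 genes in the 9 libraries, with the group on the horizontal axis, 1 symbol for each replicate number and the mean ± SD beside the points. In 5 panels the CTRL points lie above all particle-treated points, and in that of Acss2 the 3 groups overlap.

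The supply of cytosolic acetyl-CoA is taken first. Acly (ENSMUSG00000020917), at chr11:100476353-100528000 on the minus strand of GRCm38, had 467, 485 and 403 cpm in the CTRL libraries. It had 246, 262 and 272 cpm with VLDLsep and 264, 254 and 261 cpm with CHYLsep. All 6 treated libraries thus lay in a narrow band well under the lowest CTRL library. The mean was 452 ± 42.8 cpm in CTRL, 260 ± 13.3 with VLDLsep and 259 ± 5.33 with CHYLsep (SD, n = 3 each). Acly fell by 0.79 on the log2 scale with VLDLsep (SE 0.07, adjusted p = 1.4e-05, limma) and by 0.80 with CHYLsep (SE 0.07, adjusted p = 2.1e-05), that is to 57.7% and 57.6% of CTRL. Without replicate 3 the differences were -0.91 and -0.88.

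Slc25a1 (ENSMUSG00000003528; chr16:17925223-17928219, minus strand), the citrate carrier, changed least among the 5. Its CTRL libraries had 78.5, 79.5 and 70.1 cpm, those with VLDLsep 63.8, 60.9 and 58.4 cpm, and those with CHYLsep 58.9, 62.8 and 56.5 cpm. The groups did not overlap, although CTRL replicate 3 came close to the treated libraries. Replicate 3 was the lowest library in each of the 3 groups. Between libraries of the same number the log2 ratio to CTRL was -0.30, -0.38 and -0.26 with VLDLsep. With CHYLsep it was -0.41, -0.34 and -0.31. Slc25a1 fell by 0.31 (SE 0.07, adjusted p = 0.0037, limma) with VLDLsep and by 0.35 (SE 0.07, adjusted p = 0.0028) with CHYLsep, to 80.4% and 78.2% of CTRL. These sizes were not rare, as 18.4% and 12.6% of the genes tested had a log2 difference as low or lower. Leaving out replicate 3 gave -0.34 and -0.38.

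Acss2 (ENSMUSG00000027605; chr2:155517948-155585724, plus strand), the acetate-using enzyme, had 25.7, 29.6 and 29.3 cpm in CTRL. The VLDLsep libraries had 27.3, 25.0 and 30.5 cpm and the CHYLsep libraries 21.2, 24.0 and 31.0 cpm. Here the groups overlapped, and the highest of the 9 values was CHYLsep replicate 3. The log2 difference was -0.033 with VLDLsep (95% interval -0.31 to 0.25, adjusted p = 0.87, limma) and -0.17 with CHYLsep (-0.45 to 0.12, adjusted p = 0.38), so a fall of the size seen for Acly lay outside both intervals. Without replicate 3 in all groups the CHYLsep difference was -0.29 and was called lower (adjusted p = 0.023), which made 6 of 6 genes called, while that of VLDLsep was -0.078 (adjusted p = 0.5). In that fit the share of all genes called lower with CHYLsep also went up, from 13.0% to 15.9%. The exons of Acss2 share 395 bases with Gss, the glutathione synthetase gene on the opposite strand, and whether the libraries kept the strand is not given in the sources used here. Gss rose by 0.89 with VLDLsep and by 0.72 with CHYLsep on the log2 scale, and its part in the Acss2 values was not tested. The other genes that overlap exons of Acss2, Ggt7 and Acss2os, had 0 counts in all libraries.

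The malonyl-CoA step comes next. Acaca (ENSMUSG00000020532; chr11:84129672-84401651, plus strand) had 116, 125 and 101 cpm in CTRL, 59.2, 64.9 and 62.8 cpm with VLDLsep and 64.7, 56.9 and 60.2 cpm with CHYLsep. Every treated library lay far below the lowest CTRL library. Group means were 114 ± 12.4, 62.3 ± 2.87 and 60.6 ± 3.94 cpm (SD, n = 3 each). On the log2 scale Acaca fell by 0.87 with VLDLsep (SE 0.08, adjusted p = 2.3e-05, limma) and fell by 0.91 with CHYLsep (SE 0.08, adjusted p = 2.9e-05), to 54.9% and 53.4% of CTRL. Without replicate 3 the differences were -0.96 and -0.99.

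Mid1ip1 (ENSMUSG00000008035; chrX:10715013-10719690, plus strand), the activator of acetyl-CoA carboxylase, had the largest log2 fall of the 6 genes. Values were 55.2, 54.7 and 47.0 cpm in CTRL, 20.3, 21.97 and 17.9 cpm with VLDLsep and 23.7, 25.0 and 19.7 cpm with CHYLsep. The lowest library, VLDLsep replicate 3, still held 394 counts of the gene. Replicate 3 was the lowest library in each of the 3 groups. Mid1ip1 fell by 1.38 (SE 0.11, adjusted p = 6e-06, limma) with VLDLsep and by 1.20 (SE 0.10, adjusted p = 2e-05) with CHYLsep, to 38.3% and 43.5% of CTRL. Only 1.17% and 0.973% of the genes tested had a log2 difference as low or lower. Without replicate 3 the values were -1.38 and -1.17. Its exons share 543 bases with the antisense gene Gm14493, which had at most 0.055 cpm in any library.

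Fasn (ENSMUSG00000025153; chr11:120805846-120824547, minus strand), which makes palmitate, had 547, 565 and 497 cpm in CTRL. It had 227, 225 and 252 cpm with VLDLsep and 262, 238 and 255 cpm with CHYLsep. The gap between the lowest CTRL library and the highest treated library was wider than the spread within any group. The mean went from 536 ± 35.2 cpm to 235 ± 14.9 cpm with VLDLsep and to 251 ± 11.97 cpm with CHYLsep (SD, n = 3 each). Fasn fell by 1.19 (SE 0.07, adjusted p = 6.1e-07, limma) and by 1.09 (SE 0.07, adjusted p = 1.6e-06), to 43.8% and 47.0% of CTRL. Without replicate 3 the log2 differences were -1.30 and -1.15.

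In CTRL, replicate 3 was below both other libraries for 5 of the 6 genes, those that fell with the particles, and for 39.9% of all genes tested. For these 5 genes no call was lost when any single library was left out.

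VLDLsep and CHYLsep were then compared with each other, since they differ in particle size. None of the 6 genes passed the test, and 0% of the genes tested did in the limma fit, with 813 genes and none of the 6 at an unadjusted p under 0.05. The edgeR quasi-likelihood test called 0 genes and DESeq2 called 24 genes, none of them among the 6. The log2 difference (VLDLsep minus CHYLsep) was 0.00077 for Acly with a 95% interval from -0.15 to 0.15. It was 0.04 (-0.11 to 0.19) for Slc25a1, 0.04 (-0.15 to 0.23) for Acaca and -0.10 (-0.24 to 0.05) for Fasn. The widest intervals were those of Mid1ip1, at -0.18 (-0.44 to 0.08), and Acss2, at 0.13 (-0.15 to 0.42). The library values of the 2 particle groups overlapped for all 6 genes. Without replicate 3 the differences ran from -0.21 for Mid1ip1 to 0.21 for Acss2 and none of the 6 was called, while 232 of all genes were. These intervals bound the difference but do not show that the particles act alike.

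**Figure D2:**
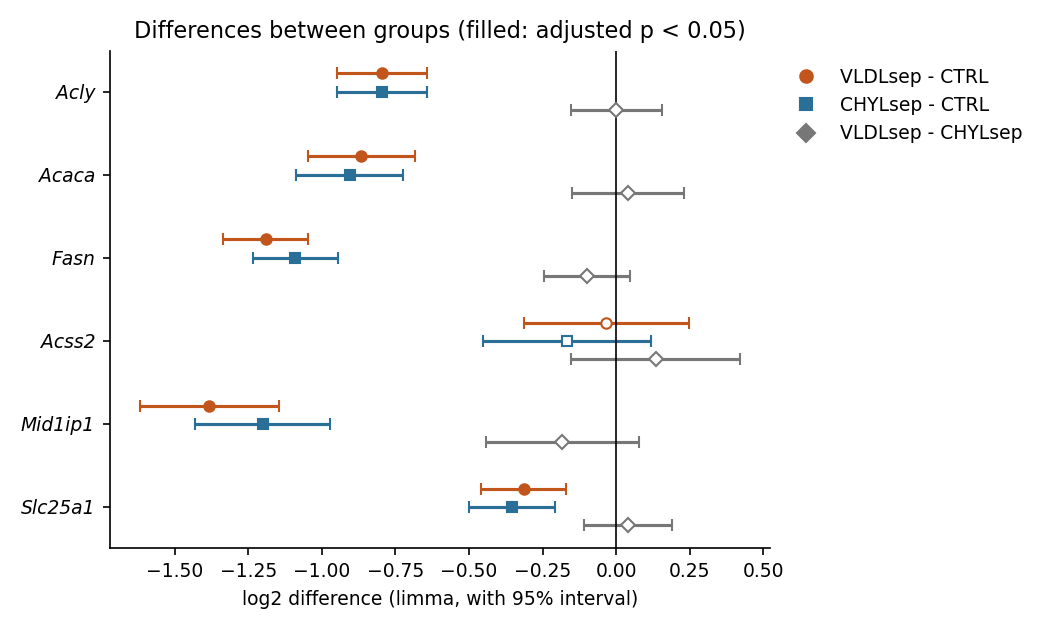
Log2 difference between groups (horizontal axis) from the limma fit for each of the 6 genes (vertical axis), with 95% intervals. Circles are VLDLsep minus CTRL, squares CHYLsep minus CTRL and diamonds VLDLsep minus CHYLsep, and filled symbols passed an adjusted p of 0.05. The particle differences are filled for all genes but Acss2, and all diamonds are open.

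Levels of different genes were set side by side per kilobase of merged exons. In CTRL the order was Acly at 85.5 ± 8.11 cpm per kilobase, Fasn at 49.0 ± 3.22, Slc25a1 at 35.1 ± 2.39, Mid1ip1 at 24.6 ± 2.15, Acaca at 6.67 ± 0.725 and Acss2 at 2.78 ± 0.215 (SD, n = 3). No neighbours in that order overlapped between libraries. In treated cells Fasn stood below Slc25a1, with 21.5 ± 1.36 against 28.2 ± 1.25 cpm per kilobase for VLDLsep and 22.97 ± 1.09 against 27.4 ± 1.48 for CHYLsep, and again no library value of the pair overlapped. Acaca came down to 3.65 and 3.55 cpm per kilobase, close to Acss2 at 2.72 and 2.50. With the longest transcript as the length, the order in CTRL was unchanged for 6 of 6 genes, but Acss2 stood above Acaca in both treated groups. Without replicate 3 the order was unchanged in all 3 groups.

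**Figure D3:**
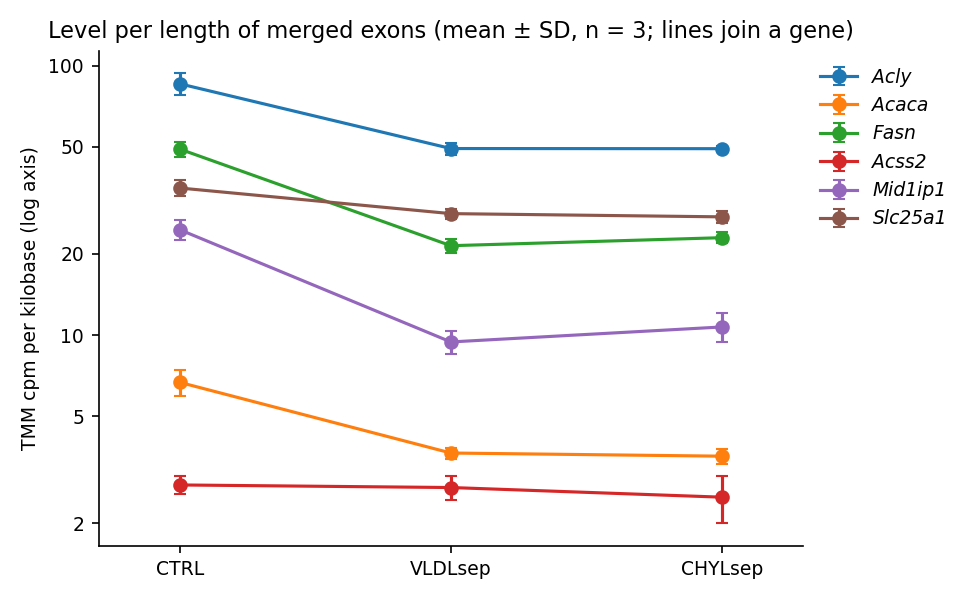
Mean level in TMM cpm per kilobase of merged exons (vertical log axis) in the 3 groups (horizontal axis) for each gene, with SD bars (n = 3) and lines that join the means of a gene. The line of Fasn crosses that of Slc25a1 between CTRL and the particle groups, and the line of Acss2 stays near level.

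The ratio between members within a library showed how evenly they fell. Per length, Acaca stood to Acly at 0.0765, 0.0799 and 0.0772 in CTRL, at 0.0745, 0.0767 and 0.0713 with VLDLsep and at 0.0758, 0.0694 and 0.0714 with CHYLsep. The VLDLsep range overlapped that of CTRL and the CHYLsep range lay just below it, so these 2 genes kept nearly the same proportion. The ratio of Fasn to Acly was 0.565, 0.562 and 0.594 in CTRL, 0.446, 0.415 and 0.446 with VLDLsep and 0.478, 0.453 and 0.471 with CHYLsep. Thus Fasn was lower relative to Acly in all 6 treated libraries. For Slc25a1 the ratio to Acly was 0.410, 0.400 and 0.424 in CTRL, 0.634, 0.568 and 0.524 with VLDLsep and 0.544, 0.604 and 0.528 with CHYLsep, higher in every treated library. These ratios are a description, with no test. They rest on merged exon lengths, and another choice of length would scale a given ratio alike in all libraries.

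Among the other tested genes, those nearest in pattern to each member were found by the root mean square difference over the 9 libraries of log2 levels centred on the CTRL mean. Nearest to Acly were Etl4 (0.070), Add3 (0.074) and Cnksr3 (0.090), and nearest to Acaca were Tmcc3 (0.074), Etl4 (0.097) and Sc5d (0.10), a gene of late cholesterol synthesis. Nearest to Fasn were the acyl-CoA synthetase gene Acsl3 (0.095), the cholesterol synthesis gene Hsd17b7 (0.10) and Twist2 (0.10). Mid1ip1 was followed most closely by Mid1 (0.050), whose protein binds that of Mid1ip1, the sterol carrier gene Stard4 (0.053) and Srebf1 (0.075). Slc25a1 had Sec14l1 (0.044), the phospholipid acyltransferase gene Lpcat3 (0.045) and Pxk (0.048), and Acss2 had Cep44 (0.077), Osgepl1 (0.088) and Zcchc14 (0.090). Between the members themselves the nearest pair was Acly and Acaca (0.087), followed by Fasn and Mid1ip1 (0.20), and the farthest was Acss2 and Mid1ip1 (1.02).

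The 7 lists of neighbouring pathway genes held genes called in both directions, 19 lower and 16 higher with VLDLsep and 15 lower and 13 higher with CHYLsep of 62 tested. Over all genes tested 17.9% were called lower and 17.8% higher with VLDLsep, and 13.0% and 12.7% with CHYLsep. The counts of each list below stand beside these same shares. Without replicate 3 the list counts were 20 lower and 20 higher with VLDLsep and 15 lower and 18 higher with CHYLsep. Calls over all genes rose there too, from 4500 to 5386 with VLDLsep and from 3249 to 4150 with CHYLsep. The list of genes related to the carboxylase and the synthase was not limited to direct partners of these enzymes. Of this list 4 of 6 genes were tested, with 1 lower and 3 higher with VLDLsep and 1 lower and 2 higher with CHYLsep. Acacb, the mitochondrial acetyl-CoA carboxylase, had 3.20, 3.79 and 3.22 cpm in CTRL, 5.89, 5.30 and 5.92 cpm with VLDLsep and 5.05, 4.68 and 5.88 cpm with CHYLsep. It rose by 0.74 (SE 0.14, adjusted p = 0.0017, limma) and 0.61 (SE 0.14, adjusted p = 0.0085), opposite to Acaca. The level of Acaca per length relative to Acacb was 20.4, 18.6 and 17.7 in CTRL, and 5.67 to 6.90 with VLDLsep and 5.78 to 7.23 with CHYLsep, so Acaca stayed the more abundant of the pair. The size of this ratio depends on the length used. Merged exons hold 17074 bases for Acaca and 9632 for Acacb, and the longest transcripts 9513 and 8788. Hlcs, which attaches biotin to carboxylases, rose by 0.55 and 0.50, and Mlycd, which breaks down malonyl-CoA, fell by 0.44 and by 0.36. The Mlycd call with CHYLsep (adjusted p = 0.022) was lost without CTRL replicate 1 (0.079), CTRL replicate 2 (0.058), CHYLsep replicate 1 (0.077) or CHYLsep replicate 3 (0.071), and with no filter on low counts (0.051). Thrsp, the paralog of Mid1ip1, had 0 counts in CTRL.

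Fasn consumes cytosolic NADPH, and of the list of genes for NADPH supply 4 of 6 were called higher and none lower with either particle. One of these, H6pd, makes NADPH in the lumen of the endoplasmic reticulum and not in the cytosol. Pgls, which was not called, makes no NADPH itself. Of the listed cytosolic enzymes that make NADPH, Me1, G6pdx and Pgd were called higher and Idh1 was not called. Me1, malic enzyme 1, went from 59.5, 58.1 and 66.1 cpm in CTRL to 139, 145 and 164 cpm with VLDLsep and 134, 131 and 143 cpm with CHYLsep, without overlap. It rose by 1.29 (SE 0.07, adjusted p = 9.3e-07, limma) and 1.15 (SE 0.07, adjusted p = 2.8e-06). The pentose phosphate pathway genes G6pdx and Pgd rose by 1.07 and 1.24 with VLDLsep and by 1.08 and 1.23 with CHYLsep, and H6pd rose by 0.51 with each. The median log2 difference of the list was 0.79 with VLDLsep and 0.80 with CHYLsep. Both medians include H6pd and Pgls.

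Of the list of genes for acetyl-CoA and citrate supply, 11 of 14 were tested. With VLDLsep 1 was lower and 5 were higher, and with CHYLsep 1 was lower and 4 were higher. The lower one was Aco1, the cytosolic aconitase, which acts on citrate after its export and fell by 0.30 with each particle. Its call was lost without CTRL replicate 1, CTRL replicate 2 or VLDLsep replicate 3 for VLDLsep (adjusted p 0.061 to 0.072), and without CTRL replicate 1, CTRL replicate 2, CHYLsep replicate 2 or CHYLsep replicate 3 for CHYLsep (0.06 to 0.096). Pcx, pyruvate carboxylase, which feeds oxaloacetate into citrate formation, went from 18.1, 18.9 and 18.1 cpm in CTRL to 40.5, 39.5 and 45.5 cpm with VLDLsep and 39.4, 36.1 and 40.2 cpm with CHYLsep. Its rise was 1.18 (SE 0.08, adjusted p = 2e-06, limma) and 1.07 (SE 0.08, adjusted p = 6.5e-06). Pdhb, a subunit of pyruvate dehydrogenase, rose by 0.27 and 0.26. In the mitochondrial fatty acid synthesis pathway, a separate bacterial-type system, none of 6 tested genes was called with either particle. Of AMPK, the kinase that inhibits acetyl-CoA carboxylase, and its own kinase, 6 of 8 genes were tested, with 3 lower and 1 higher with VLDLsep and 1 lower and 1 higher with CHYLsep. Prkag1, a regulatory subunit, fell by 0.32 with VLDLsep (adjusted p = 0.002, limma), and with CHYLsep its difference was -0.18 (adjusted p = 0.051). Prkag2, another regulatory subunit, fell by 0.37 and by 0.31, and the catalytic subunit Prkaa1 rose by 0.18 and 0.21. The calls of Prkag2 and Prkaa1 were each lost in 4 to 10 of 19 alternative fits per particle.

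The list of lipogenic transcription control had 19 of 20 genes tested, with 7 lower and 3 higher with VLDLsep and 6 lower and 2 higher with CHYLsep. Srebf1, which encodes SREBP-1, had 158, 160 and 148 cpm in CTRL, 64.3, 61.7 and 55.1 cpm with VLDLsep and 68.8, 71.3 and 64.0 cpm with CHYLsep. The groups did not overlap, and Srebf1 fell by 1.37 (SE 0.07, adjusted p = 2.7e-07, limma) and by 1.19 (SE 0.07, adjusted p = 8.6e-07). Insig1, which retains SREBP in the endoplasmic reticulum and is itself an SREBP target, went from 144, 153 and 160 cpm to 35.3, 35.6 and 32.8 cpm with VLDLsep and 39.5, 37.4 and 37.1 cpm with CHYLsep. It fell by 2.14 and by 2.00. Srebf2, the sterol-responsive sister gene, fell by 0.69 and by 0.61, and Usf1 and Usf2, which bind E-boxes, fell by 0.46 and by 0.41 with VLDLsep and by 0.41 and by 0.30 with CHYLsep. Of the genes called higher, Rxra, the partner of liver X receptors, rose by 0.34 and 0.35. Insig2, the paralog of Insig1, rose by 0.26 with each particle, and its call was lost in 1 and 4 of 19 alternative fits. Mbtps2, which encodes a protease that processes SREBP, rose by 0.32 with VLDLsep (adjusted p = 0.0031, limma). With CHYLsep its difference was 0.20 (adjusted p = 0.051). Mlxipl, which encodes the carbohydrate-responsive factor ChREBP, had 0 counts in CTRL.

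The list named next steps on palmitate was wider than its name. It also held Fads1, Fads2 and Elovl5, which act mainly on polyunsaturated fatty acids, and Elovl1, which acts on very long chains. Of this list 10 of 11 genes were tested, with 7 lower with VLDLsep, 6 lower with CHYLsep and none higher. Scd2, a stearoyl-CoA desaturase, fell from 1288, 1353 and 1206 cpm in CTRL to 134, 160 and 136 cpm with VLDLsep and 173, 186 and 141 cpm with CHYLsep. Its log2 difference was -3.16 (SE 0.10, adjusted p = 1.4e-08, limma) and -2.95 (SE 0.10, adjusted p = 3.2e-08), larger in size than that of any of the 6 synthesis genes. Scd1 was far lower in these cells, at 9.41 ± 0.876 cpm in CTRL and 1.18 ± 0.451 and 1.20 ± 0.399 cpm with the particles (SD, n = 3). Acsl3, which activates fatty acids, fell by 1.24 and by 1.18, the desaturase Fads2 fell by 0.60 and by 0.63, and the elongase Elovl5 fell by 0.53 and by 0.50. The median of the list was -0.50 with VLDLsep and -0.49 with CHYLsep. Both medians include Fads1, Fads2, Elovl1 and Elovl5. Elovl6, the palmitate elongase, had 0 counts in CTRL. No gene of any of the 7 lists was called between VLDLsep and CHYLsep by limma, edgeR or DESeq2.

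**Figure D4:**
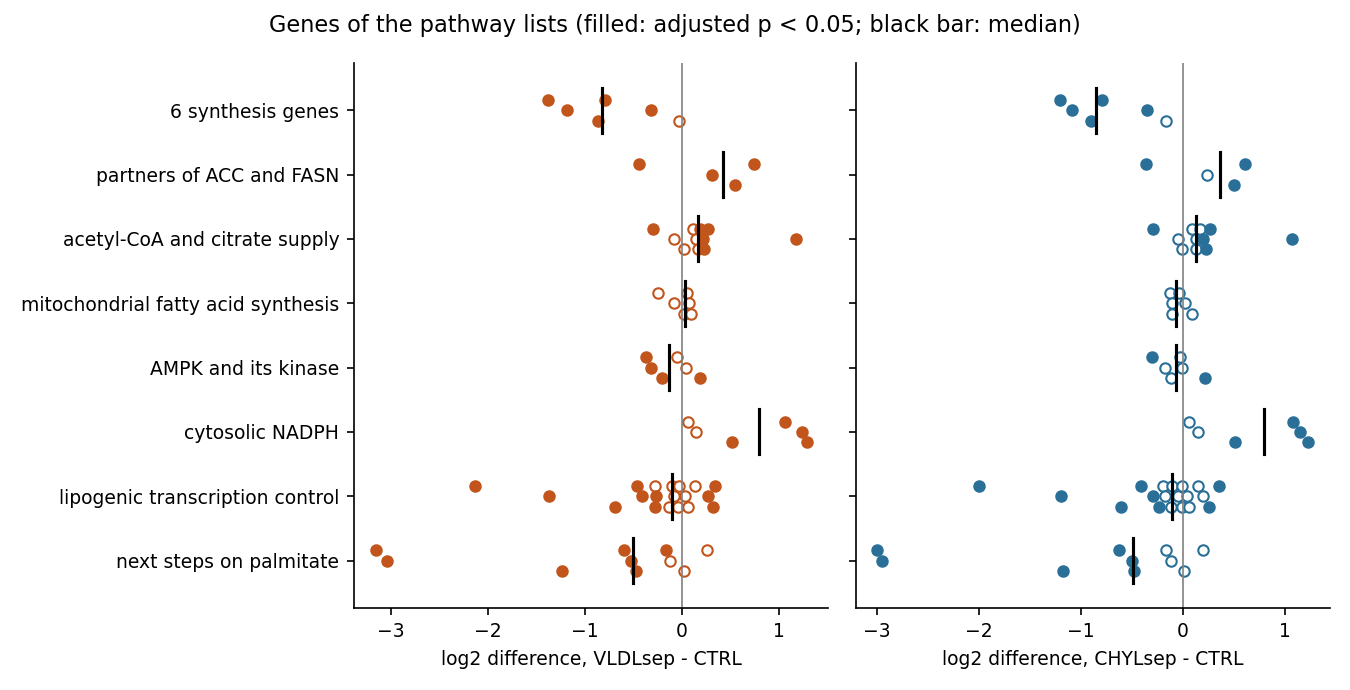
Log2 difference from CTRL (horizontal axes) of each tested gene of the 6 synthesis genes and of the 7 lists (vertical axis), for VLDLsep (left) and CHYLsep (right). Filled points passed an adjusted p of 0.05 and black bars are list medians. The genes listed under cytosolic NADPH lie at or above 0. They include H6pd of the endoplasmic reticulum and Pgls, which makes no NADPH. Most of the synthesis genes and of the list named next steps on palmitate lie below 0. That list also holds enzymes of polyunsaturated and very long fatty acids.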

How the data were processed

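RNA-seq libraries (BGISEQ-500, paired-end) were quantified by the authors with Salmon 0.14.1 against the GENCODE transcripts of GRCm38.p6 and summed to genes with tximport. The deposited values are estimated counts per gene, of which 58.3% of those above 10 are whole numbers. Symbols were attached by Ensembl ID for 54346 of 54432 genes. Genes over 10 counts in 3 or more libraries entered a limma fit (voom weights, TMM factors, all 9 libraries, no block, 2-sided, Benjamini-Hochberg over 12637 genes), the filter and model given in the methods of the study. Those methods describe counts adjusted for transcript length and library size. Whether the deposited values carry that adjustment is not given in the sources used here. Adjusted counts would seldom be whole numbers, so the deposited values were analysed as unadjusted. R 4.3.3, limma 3.58.1, edgeR 4.0.16 and DESeq2 1.42.0 were used, the latter 2 on rounded counts, and the fit was tested on simulated data. Lengths and positions are from GENCODE on GRCm38 and promoters from RefSeq. The members and lists were chosen with earlier results of these data known. Named were all members, list genes, those called first, and the 3 genes nearest in pattern to each member. Replicates of a condition came from 1 cell line, so p-values measure the spread between these libraries, which may in part be technical. Intervals and SEs rest on 3 libraries a group.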

Additional observations from a re-analysis of the deposited data

How the results depend on the processing

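The count of 5 of 6 genes called lower with each particle, and 0 between the particles, was the same with only the 2 groups compared, edgeR, DESeq2, limma-trend, a stricter filter or no filter, library size only, upper-quartile scaling, the replicate block and without each library in turn. Without replicate 3 of all groups it was 5 with VLDLsep, 0 between the particles and 6 with CHYLsep, as Acss2 was then called; the calls over all genes rose there too, from 3249 to 4150 with CHYLsep and from 4500 to 5386 with VLDLsep, and the cause was not tested. The order of the 6 genes per length in CTRL held for 6 of 6 without replicate 3, a setting added for it after seeing the data. The pathway lists' 35 and 28 calls ranged from 28 to 42 and from 22 to 39 over these settings.

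Uncalled differences near 0 changed sign. Acly between the particles was -0.013 with library size only, -0.0041 with upper-quartile scaling, -0.00037 with the stricter filter, -0.030 without replicate 3 and -0.033 to 0.040 over the fits without 1 library. Over those fits Acaca between the particles ranged from -0.0051 to 0.092 and Acss2 with VLDLsep from -0.11 to 0.035. Of the other list genes' fold changes against CTRL, 24 of 1178 with VLDLsep and 33 of 1178 with CHYLsep changed sign, and 38 and 38 lost a call.

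Same-numbered libraries deviated together only weakly (r = 0.089, 0.099 and 0.22 for VLDLsep and CTRL, 0.098, 0.024 and 0.27 for CHYLsep and CTRL, and 0.00021, 0.10 and 0.28 between the particles). The highest r of each set was that of replicate 3. On principal component 2 of the log2 levels, replicate 3 lay at -22.9 in CTRL, -17.7 with VLDLsep and -20.7 with CHYLsep. All other libraries lay between 6.1 and 16.1, so replicate 3 was shifted the same way in each group. Whether libraries of 1 number came from 1 experiment is not given in the sources used here, and the main fit used no block. With the replicate block the calls among the 6 genes stayed at 5, 5 and 0, while those over all genes moved from 4500, 3249 and 0 to 6058, 4949 and 147. Having 3 libraries a group from 1 cell line limits what these p-values cover.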
